A study of Mus musculus with 21 samples.

Results

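The 38 genes described here encode heat shock proteins, the cytosolic chaperones and cochaperones they work with, and 2 of the transcription factors that control them. They were taken by gene symbol from a table of counts for 49510 genes, and 38 of 38 symbols were found, each in a single row. Of these, 5 are stress-induced members (Hspa1a, Hspa1b, Dnajb1, Hsph1 and Bag3), 8 are constitutive members (Hspa8 and 7 subunits of the TRiC/CCT ring), and the other 25 are cochaperones, further family members and the factors Hsf1 and Hsf2. The protein products of Hspa9, Hspd1 and Hspe1 work in mitochondria, so the group is not cytosolic throughout. The choice of members used no measured value of these samples by its rule, although results of this data set were known when they were proposed.

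Chaperones bind proteins that are unfolded, newly made or damaged and help them to reach or regain their fold. Hsp70 proteins bind short exposed stretches and are driven by J proteins (the Dnaj genes), which stimulate their ATPase, and by exchange factors such as Bag1, Bag3 and the Hsp110 protein Hsph1, which release the client. Hsp90 takes over clients such as kinases and steroid receptors with the help of Cdc37, Stip1, Fkbp4, Ahsa1 and Ptges3, and the TRiC/CCT ring folds actin and tubulin. Heat, oxidants and inflammation release the factor Hsf1, which binds inverted repeats of the letters GAA, the heat shock element, and switches on the inducible members. In T cells, chaperone genes also rise with activation, when protein synthesis increases.

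The study profiled sorted T cells of Foxp3-GFP mice, in which green fluorescent protein reports Foxp3, the lineage factor of regulatory T cells (Tregs). All mice were 8 weeks old and had a myocardial infarction (MI) 7 days before, so no comparison here sets infarcted against uninjured animals. Tregs came from the injured heart, the spleen, the non-draining lymph nodes (NDLN) and the mediastinal lymph nodes (MLN) that drain the heart, and conventional T cells (Tconvs) from the heart, the spleen and the NDLN, each with 3 libraries (21 in all). Cells were sorted by magnetic beads and then by flow cytometry, and libraries were made from very little RNA. The labels do not say whether the 3 libraries of a group came from separate or pooled animals. The p-values therefore measure only the spread between these libraries, which may be technical.

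Libraries held 14515387 to 28323649 counts, and 9469 to 16239 genes had at least 1 count. Levels are given as CPM, each count scaled to the library total after TMM scaling, in the order of replicates 1, 2 and 3. The edgeR adjusted p is the Benjamini-Hochberg adjusted p of a quasi-likelihood test fitted over the 14996 genes that passed a filter on low counts. All 38 members passed that filter. Foxp3 was at 39.5 to 248 CPM in the 12 Treg libraries and at 0 to 0.164 CPM in the 9 Tconv libraries, and Cd3e and Cd4 were present in every group. The spread was wide: the common dispersion was 2.19, a coefficient of variation of 1.48 between libraries of a group.

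A division of the libraries that the labels do not give has to be stated before the results. Of 234 genes that were on in some libraries and off in the others, 26 shared 1 division (the next most common division had 3), and it sets 5 libraries apart from the other 16. Those 5 are replicates 1 and 2 of heart Tconvs, replicates 1 and 2 of MLN Tregs, and 1 library of heart Tregs (replicate 1). All spleen and NDLN libraries were among the 16, so the division and the organ are mixed in every comparison of heart or MLN with spleen or NDLN. Where the division bears on a member, values within the 16 libraries are given; these hold 2 heart Treg libraries, 1 heart Tconv library and 1 MLN Treg library.

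The promoters of the members are shown here because several members were called in the same comparison and because the heat shock element is the letter pattern they are known for. RefSeq promoter sequences (GRCm38.p6; the submitters' processing notes name mm10, the same assembly) matched 30 of the 38 symbols; Hspa8, Hspa9, Hsp90aa1, Hsp90ab1, Dnajc2, Cct4, Hsf1 and St13 did not match. In the 250 bases before the start, the pair of repeats GAANNTTC or TTCNNGAA (N is any base, and each reads the same on both strands) stood in 13 of 30 genes (43.3%) and in 14.5% of all 27025 genes. The longer form GAANNTTCNNGAA or its reverse complement TTCNNGAANNTTC, which contains the pair, stood in 3 of 30 genes (10%; Dnajb6, Hspd1 and Hspe1) and in 139 genes (0.514%) of all. Hspd1 and Hspe1 are neighbours that face away from each other, a window of each overlaps, and the same matches count for both. A match is a run of letters and not a shown binding site. Below, capitals mark the match, and each run reads 5′ to 3′ on the gene's strand.
The windows of the inducible pair Hspa1a (chr17:34972157-34972406) and Hspa1b (chr17:34959239-34959488), both on the minus strand, differed at 3 of 250 bases (98.8% identical), and both held the pair of repeats starting 104 bases before the RefSeq start:
Hspa1a: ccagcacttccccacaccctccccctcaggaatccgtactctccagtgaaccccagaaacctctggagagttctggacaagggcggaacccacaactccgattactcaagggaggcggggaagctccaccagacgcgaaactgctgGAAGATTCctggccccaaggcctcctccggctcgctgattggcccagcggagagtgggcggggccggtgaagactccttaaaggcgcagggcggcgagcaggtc
Hspa1b: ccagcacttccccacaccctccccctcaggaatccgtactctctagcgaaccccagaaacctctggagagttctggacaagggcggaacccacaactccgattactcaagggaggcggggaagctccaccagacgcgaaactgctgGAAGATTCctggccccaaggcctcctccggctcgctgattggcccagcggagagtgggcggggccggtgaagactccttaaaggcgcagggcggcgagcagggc
For Dnaja1 (chr4:40722218-40722467, plus strand) and Fkbp4 (chr6:128438687-128438906, minus strand), which were called in heart Tconvs, the pair started 124 and 151 bases before the RefSeq start of the window. The other 2 windows of Dnaja1 hold no match, and its window shown lies inside the gene as GENCODE annotates it. The Fkbp4 run shown is the first 220 of its 250 window bases and stops short of the RefSeq start:
Dnaja1: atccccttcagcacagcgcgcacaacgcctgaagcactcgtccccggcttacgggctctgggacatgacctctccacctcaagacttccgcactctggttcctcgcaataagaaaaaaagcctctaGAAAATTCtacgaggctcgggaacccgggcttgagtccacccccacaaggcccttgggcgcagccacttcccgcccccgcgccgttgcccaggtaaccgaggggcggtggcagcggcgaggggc
Fkbp4: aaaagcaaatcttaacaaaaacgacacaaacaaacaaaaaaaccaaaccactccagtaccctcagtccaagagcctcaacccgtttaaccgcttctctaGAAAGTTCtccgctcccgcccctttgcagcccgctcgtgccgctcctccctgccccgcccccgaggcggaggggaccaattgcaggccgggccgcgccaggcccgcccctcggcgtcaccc
For Dnajb6 (chr5:29735844-29735873, plus strand), also called in heart Tconvs, 30 bases hold the longer form, which started 46 and 127 bases before its 2 RefSeq starts and likewise lies inside the GENCODE gene:
Dnajb6: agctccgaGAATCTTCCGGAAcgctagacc
The windows of Hspa4, also called in heart Tconvs, and of the stress-induced Dnajb1 and Bag3 hold neither form, which says only that these letters are not in them.

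Per kilobase of exon, the median level over the 21 libraries was highest for Hspe1 (204 CPM per kb), followed by Hspa8 (192), Hsp90ab1 (142), Hsp90aa1 (139.8) and Cct5 (101). At the other end stood Bag3 (1.01 CPM per kb), Dnajb2 (0.386) and Hspb1 (0.168), and the inducible Hsp70 genes had a median of 0: Hspa1a had no count in 15 of 21 libraries and Hspa1b in 13. The 8 constitutive members had counts in every library, and of the 5 stress-induced members Dnajb1, the J protein that pairs with Hsp70, was the most abundant per length (25.9 CPM per kb). The 38 members together took 1.07% to 1.26% of all counts in heart Tconvs, 0.625% to 0.882% in heart Tregs, 0.558% to 1.13% in MLN Tregs and 0.314% to 0.578% in the spleen and NDLN libraries. The share in the 3 heart Tconv libraries lay above that of every spleen and NDLN library. In sorted bulk samples, more cells that express a gene and more RNA of it per cell cannot be told apart.

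The members differed most clearly between heart Tconvs and the Tconvs of the lymphoid organs. Against NDLN Tconvs, 6 of 38 members were called (Hspa8, Dnaja1, Dnajb6, Hsp90ab1, Fkbp4 and Hspa4), all higher in the heart, beside 2.88% of all genes called and 1.54% called as higher. Against spleen Tconvs, 3 were called (Hspa8, Dnaja1 and Dnajb6), all higher in the heart, beside 0.473% of all genes and 0.307% as higher. At an unadjusted p under 0.05, 12 members were higher and 1 lower against the NDLN (background 18.6% of genes) and 14 higher and 1 lower against the spleen (background 12.5%). DESeq2 called 11 (background 19.5%) and 9 (background 10.4%). The median log2 difference of the 38 was 1.17 against NDLN Tconvs (0.48 over all genes tested) and 1.23 against spleen Tconvs (0.27 over all genes). The 3 heart Tconv libraries lay above all 3 NDLN Tconv libraries for 18 members (background 16.6% of genes) and above all 3 spleen Tconv libraries for 20 (background 14.3%), and below them for 1 each (background 8.06% and 9.97%). The heart group carries 2 of the 5 libraries that stand apart: within the 16 libraries 0 members were called in either comparison, with 1 heart Tconv library left, while the median difference stayed at 1.08 against NDLN and 0.98 against spleen.

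**Figure D1:**
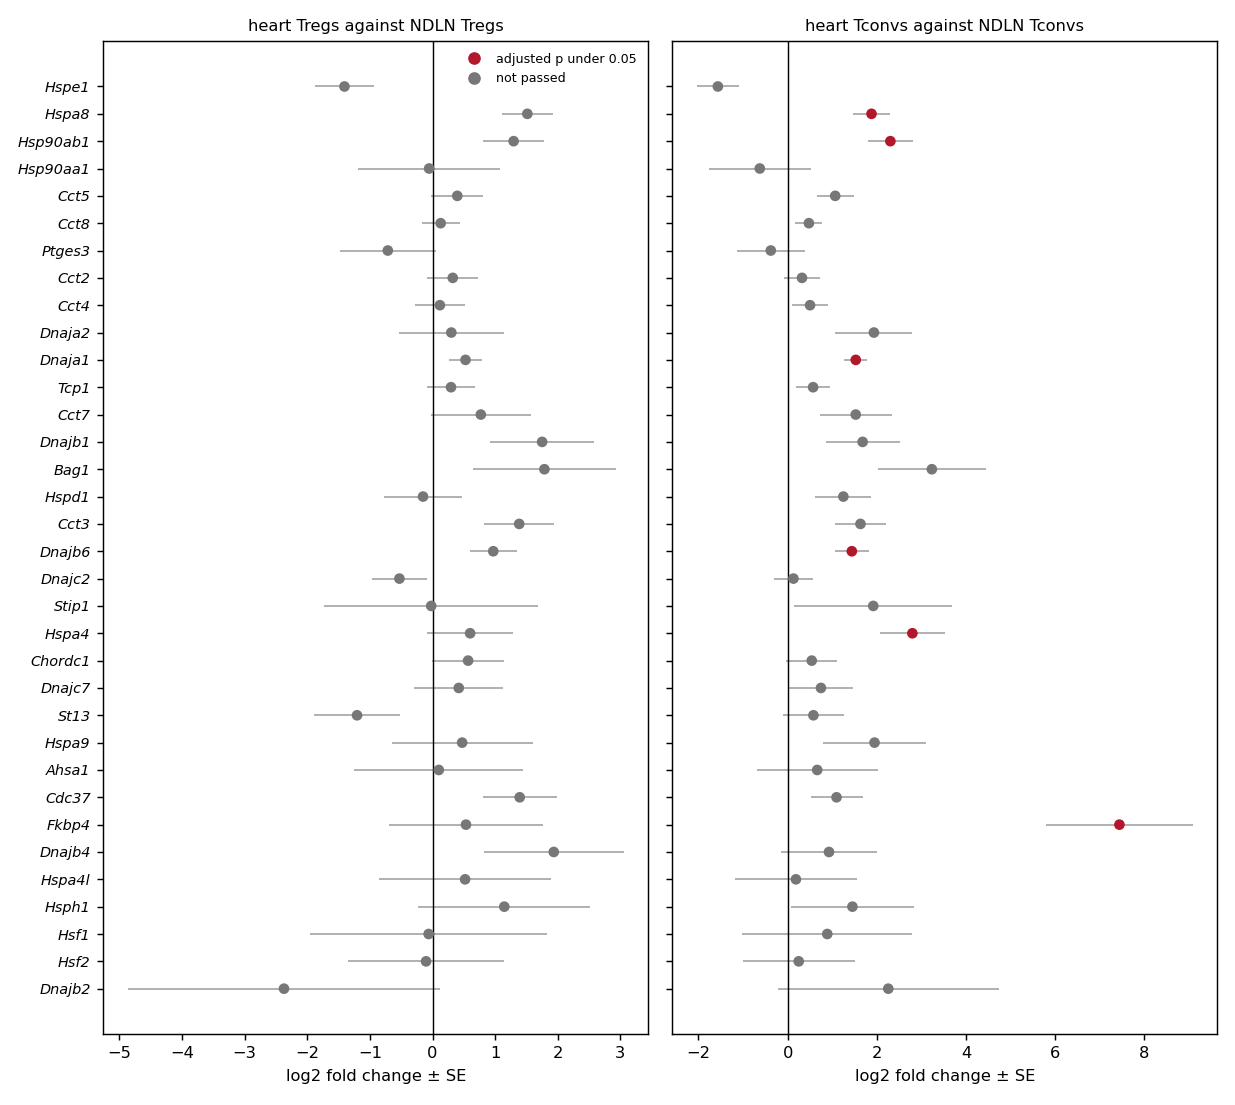
Log2 fold change with its standard error for 34 members, ordered by level per length, in heart Tregs (left) and heart Tconvs (right) against NDLN cells of the same kind; Hspa1a, Hspa1b, Hspb1 and Bag3 are left out because a group was at or near 0 counts. The 6 members that passed in heart Tconvs (red) lie between 1.44 and 7.44, and Hspe1 lies below 0 on both sides.

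Among Tregs, 0 members were called in heart against spleen, NDLN or MLN Tregs by edgeR's quasi-likelihood test, where 0.147%, 0.533% and 0.0667% of all genes were called. At an unadjusted p under 0.05, 6 members were higher in the heart and 1 lower against spleen Tregs (background 11.7% of genes), 8 and 1 against NDLN Tregs (15.5%), and 3 and 0 against MLN Tregs (9.58%). DESeq2 called 5, 5 and 2 members (background 9.56%, 13% and 7.86%). The median log2 difference of the 38 was 0.58 against spleen Tregs (-0.02 over all genes), 0.41 against NDLN Tregs (0.00 over all genes) and 0.01 against MLN Tregs (-0.12 over all genes). The heart libraries lay above the others for 9, 6 and 3 members (background 6.66%, 8.5% and 4.7% of genes) and below for 0, 2 and 1 (background 8.83%, 11.1% and 7.7%). Whether the heart difference of a member was smaller in Tregs than in Tconvs was tested as an interaction, and edgeR called 0 members against the spleen and 0 against the NDLN (background 0.0133% in both). At an unadjusted p under 0.05, 2 members were lower in the first interaction (background 7.5%), and 1 higher and 4 lower in the second (background 9.94%). DESeq2 called 1 and 3 (background 5.97% and 9.72%). Across all 7 groups, a joint test called 4 members (Hspa8, Dnaja1, Dnajb6 and Hsp90ab1), beside 3.3% of genes, and DESeq2 called 12, beside 15.3%.

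Hspa8, the constitutive Hsp70 (Hsc70) that folds new proteins and strips clathrin from vesicles, was at 1935, 3297 and 2799 CPM in heart Tconvs. It was at 602, 626 and 363 CPM in spleen Tconvs and at 1046, 767 and 367 in NDLN Tconvs. Every heart Tconv library was above every lymphoid Tconv library, and the difference passed against the spleen (log2 fold change 2.34 ± 0.41 SE, edgeR adjusted p = 0.017) and against the NDLN (1.88 ± 0.41 SE, edgeR adjusted p = 0.017). Heart Tregs were at 2178, 1456 and 1579 CPM, spleen Tregs at 828, 897 and 626 and NDLN Tregs at 760.4, 678 and 385. Here too the groups did not overlap, but the difference did not pass (log2 fold change 1.15 ± 0.40 SE, edgeR adjusted p = 0.39 against spleen and 1.52 ± 0.40 SE, edgeR adjusted p = 0.094 against NDLN). MLN Tregs were at 2484, 1772 and 809 CPM, so that the libraries of the set of 5 were high and the third lay within the range of the spleen Tregs. Over all groups, Hspa8 was at 1772 to 3297 CPM in the set of 5 and at 363 to 2799 in the 16. Within the 16 libraries, with a single heart Tconv library, the heart Tconv difference was 2.41 against spleen and 1.93 against NDLN. With the division as a term it was 2.00 and 1.54, and both calls were lost (edgeR adjusted p = 0.088 and 0.092). Over all libraries, the call against the spleen was lost without spleen Tconv replicate 1 or 3 or heart Tconv replicate 2 (edgeR adjusted p up to 0.13), and that against the NDLN without NDLN Tconv replicate 3 or heart Tconv replicate 2 (up to 0.071). The MLN difference from NDLN Tregs was 1.47 over all libraries (edgeR adjusted p = 0.37) and 0.44 (edgeR adjusted p = 1) within the 16. Of the exonic 50-base stretches of Hspa8, 68.8% also occur in 13 other annotated genes, and how such reads were counted is not given in the sources used here, so its level is uncertain. The copy that shares most with it, Gm15459, had 0 counts.

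Hspa4, an Hsp110-type exchange factor for Hsp70, was at 143, 166 and 125 CPM in heart Tconvs, 81.5, 71.2 and 38.8 in spleen Tconvs and 36.2, 3.26 and 23.0 in NDLN Tconvs. It passed only against the NDLN, where it was low (log2 fold change 2.80 ± 0.73 SE, edgeR adjusted p = 0.042), and not against the spleen (1.18 ± 0.70 SE, edgeR adjusted p = 0.46); that these differ was not tested. In heart Tregs it was uneven, at 178, 21.04 and 157 CPM. Its relative Hspa4l ranged from 0.0418 to 101 CPM over the 21 libraries with no called difference. The call of Hspa4 was lost when any 1 of 16 libraries, from 7 groups, was left out (edgeR adjusted p up to 0.12). It was also lost with the division of libraries as a term (2.31, edgeR adjusted p = 0.19). Within the larger set of libraries, with 1 heart Tconv library left, the difference was 2.56.

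J proteins bring clients to Hsp70. Dnaja1, a farnesylated cytosolic J protein, was at 1067, 778 and 690.2 CPM in heart Tconvs, 418, 320.4 and 313 in spleen Tconvs and 294, 233 and 352 in NDLN Tconvs. The lowest heart Tconv library was above the highest of the other 18 libraries (479 CPM, a heart Treg library), which held for no other member. The difference passed against the spleen (log2 fold change 1.27 ± 0.26 SE, edgeR adjusted p = 0.03) and the NDLN (1.53 ± 0.26 SE, edgeR adjusted p = 0.0054), and the call against the NDLN held without each of the 21 libraries in turn (edgeR adjusted p = 0.004 to 0.047) and with the division of libraries as a term (1.33, edgeR adjusted p = 0.027). Within the 16 libraries it was lost, with 1 heart Tconv library left (1.22, edgeR adjusted p = 0.18). The call against the spleen was lost without any 1 of the 3 spleen Tconv libraries or heart Tconv replicates 1 and 2 (edgeR adjusted p up to 0.28), with the division as a term (1.08, edgeR adjusted p = 0.17) and within the 16 (0.99, edgeR adjusted p = 0.77). In heart Tregs Dnaja1 was at 438, 431 and 479 CPM, above all spleen (299.9, 234 and 239.9) and NDLN Treg libraries (346, 272 and 317) without passing (log2 fold change 0.80 ± 0.26 SE, edgeR adjusted p = 0.35 and 0.53 ± 0.26 SE, edgeR adjusted p = 0.33). Heart Tregs lay below heart Tconvs in every library, and this difference did not pass either (log2 fold change -0.91 ± 0.26 SE, edgeR adjusted p = 0.49; DESeq2 adjusted p = 0.024). Of its exonic 50-base stretches 27.1% occur in other genes.

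Dnajb6, a J protein that holds aggregation-prone chains in solution, was at 439, 259 and 330.4 CPM in heart Tconvs, 52.3, 115 and 120.4 in spleen Tconvs and 166, 87.3 and 126 in NDLN Tconvs, with no overlap. It passed against both (log2 fold change 1.84 ± 0.38 SE, edgeR adjusted p = 0.033 and 1.44 ± 0.38 SE, edgeR adjusted p = 0.043), but the call against the NDLN was lost without any 1 of 19 libraries and that against the spleen without any 1 of 5 (spleen Tconv replicates 1, 2 and 3, heart Tconv replicates 1 and 2), with edgeR adjusted p up to 0.25 and 0.24. Heart Tregs were at 197, 271 and 163 CPM and lay above all MLN (104, 69.3 and 85.1), spleen (81.1, 91.0 and 134) and NDLN Treg libraries (101, 126 and 94.8). The difference from MLN Tregs was the one with the smallest p among the members in that pair, and it did not pass (log2 fold change 1.29 ± 0.38 SE, edgeR adjusted p = 0.36). The levels of Dnajb6 did not follow the division of the libraries. The MLN replicates of the set of 5 were low, and the heart Treg library of that set lay between the other heart Tregs. With the division as a term, the heart Tconv difference was 1.84 against spleen and 1.45 against NDLN. Both calls were lost with that term (edgeR adjusted p = 0.14 and 0.13). Within the 16 libraries, with 1 heart Tconv library left, the differences were 1.797 and 1.369. Dnaja2 (0.410 to 237 CPM over all libraries), Dnajb2 (0 to 17.0), Dnajb4 (0.484 to 121), Dnajc2 (39.9 to 137) and Dnajc7 (5.98 to 108) had no called difference by edgeR or DESeq2.

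**Figure D2:**
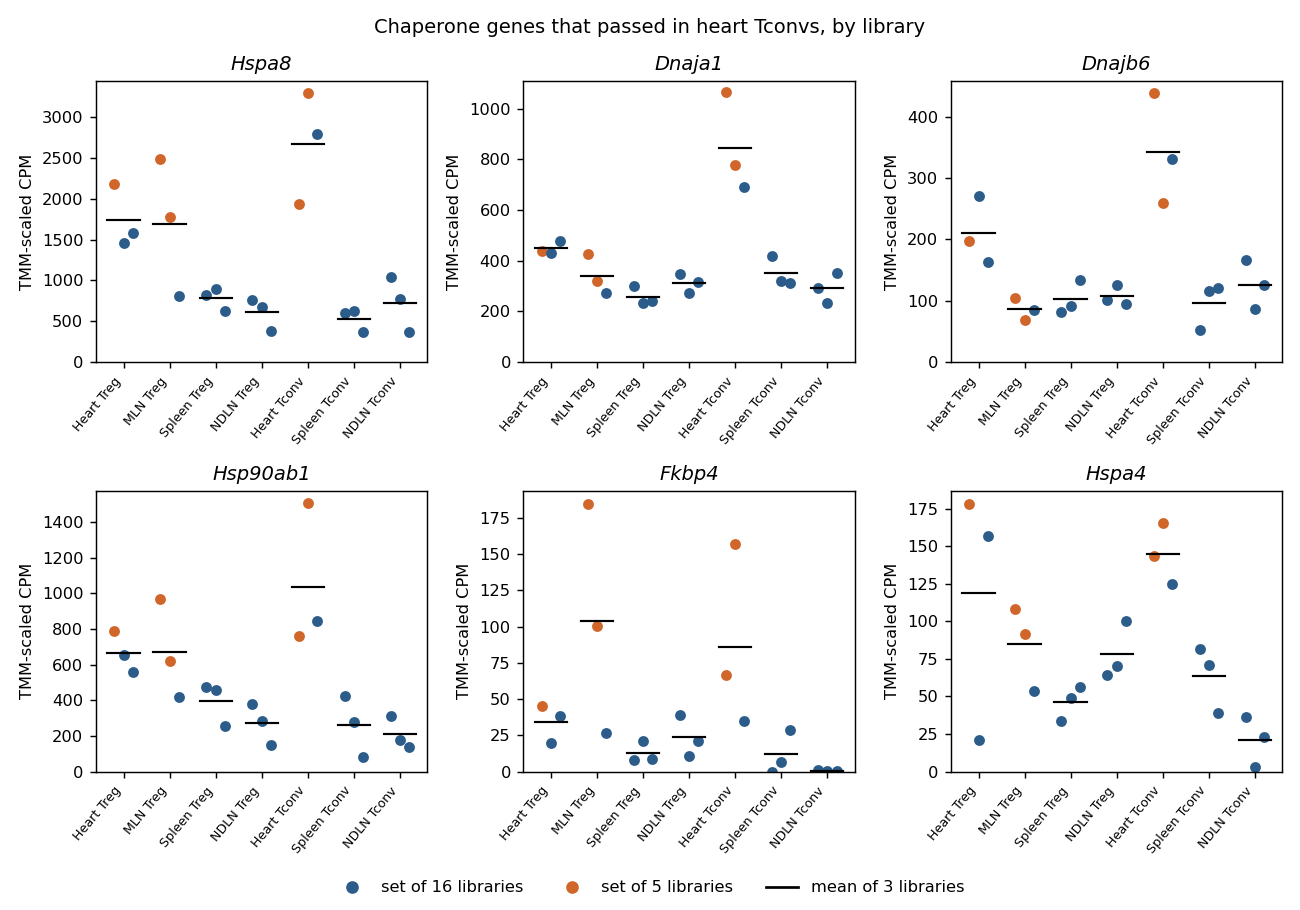
Level of the 6 members that passed in heart Tconvs, in TMM-scaled CPM, for each of the 21 libraries by group; points are libraries (orange, the set of 5 that stands apart; blue, the other 16) and lines the mean of 3. The heart Tconv libraries lie above the NDLN Tconv libraries in all 6 panels, and MLN Treg replicates 1 and 2 stand high for Hspa8, Hsp90ab1 and Fkbp4 but not for Dnajb6.

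The cytosolic Hsp90 genes had different patterns. Hsp90ab1, the constitutive cytosolic Hsp90, was at 761, 1506 and 842 CPM in heart Tconvs, 424, 279 and 84.1 in spleen Tconvs and 313, 176 and 139.7 in NDLN Tconvs. It passed against the NDLN (log2 fold change 2.30 ± 0.51 SE, edgeR adjusted p = 0.018) and not against the spleen (1.98 ± 0.50 SE, edgeR adjusted p = 0.072), although neither pair of groups overlapped. The call was lost without NDLN Tconv replicate 2 or 3 or heart Tconv replicate 2 (edgeR adjusted p up to 0.089). It was also lost with the division of libraries as a term (1.91, edgeR adjusted p = 0.11). Within the 16 libraries, with 1 heart Tconv library left, the difference was 1.99. Heart Tregs, at 789, 652 and 559 CPM, lay above spleen (473, 456 and 256) and NDLN Tregs (379.9, 285 and 149.9) without passing (log2 fold change 0.76 ± 0.49 SE, edgeR adjusted p = 0.52 and 1.30 ± 0.49 SE, edgeR adjusted p = 0.28).

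Hsp90aa1, the inducible cytosolic Hsp90, had no difference between groups near the threshold (lowest edgeR adjusted p over the 9 pairs of groups 0.78). Its levels instead split with the division of libraries. It was at 43.6, 979.6 and 796 CPM in heart Tregs, 35.8, 22.9 and 682 in MLN Tregs and 76.8, 71.7 and 1118 in heart Tconvs, and at 374 to 872 CPM in the 12 spleen and NDLN libraries. The 5 libraries of the smaller set were at 22.9 to 76.8 CPM and the other 16 at 374 to 1118, with no overlap. The ratio of Hsp90aa1 to Hsp90ab1 counts was 0.0370 to 0.101 in the 5 and 1.03 to 4.44 in the 16, while the summed level of both genes overlapped (643 to 1577 CPM and 458 to 1960 CPM). Heart Tregs, heart Tconvs and MLN Tregs each hold libraries of both kinds, so replicates of the same group lay far apart in this gene. Of its exonic 50-base stretches, 50.1% occur in other genes, and the one that shares most, Gm12346, was at 1.87 to 9.16 CPM without TMM scaling in the 5 libraries and at 6.24 to 25.0 in the 16, which overlap. The part that library preparation or counting has in this split was not tested.

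**Figure D3:**
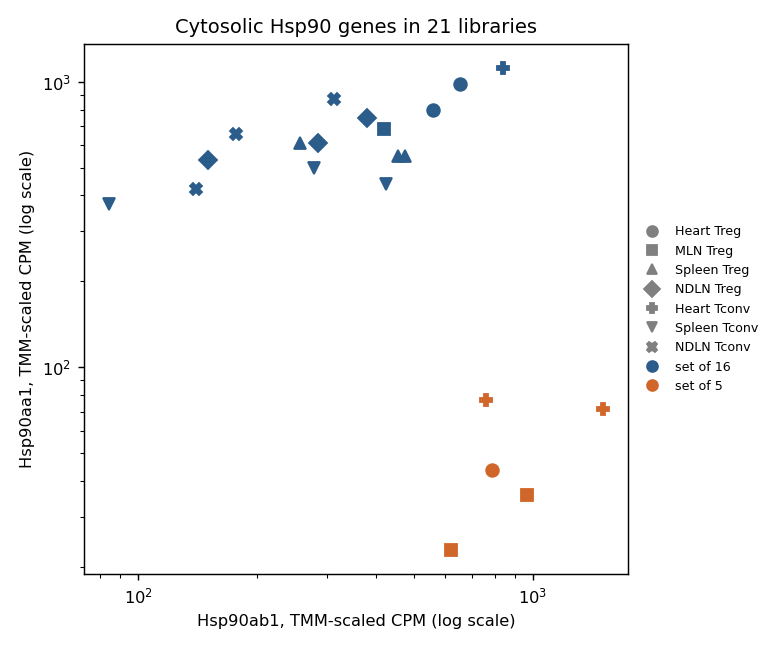
Hsp90aa1 against Hsp90ab1 in the 21 libraries, in TMM-scaled CPM on log axes; marker shape gives the group and colour the library set. The 5 libraries of the smaller set (orange) lie at 22.9 to 76.8 CPM of Hsp90aa1, apart from the other 16 at 374 to 1118, while their Hsp90ab1 ranges overlap.

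Hsp90 cochaperones were mostly without a called difference. Fkbp4, the immunophilin FKBP52 that joins steroid receptor complexes, was at 66.5, 157 and 34.8 CPM in heart Tconvs, 0, 6.88 and 28.9 in spleen Tconvs and 0.997, 0.292 and 0.173 in NDLN Tconvs. The gene was close to absent in all 3 NDLN Tconv libraries and present in all 3 heart libraries, and the difference passed (log2 fold change 7.44 ± 1.64 SE, edgeR adjusted p = 0.018). Against the spleen it did not (2.85 ± 1.32 SE, edgeR adjusted p = 0.39). Fkbp4 was also higher in the 5 libraries of the smaller set (45.3 to 185 CPM) than in the other 16 (0 to 39.2), and MLN Tregs, at 185, 100.4 and 26.5 CPM, showed the same split. Within the 16 libraries the heart Tconv difference was 6.12 (edgeR adjusted p = 0.45), and the call was also lost without NDLN Tconv replicate 2 or 3 or heart Tconv replicate 2 (edgeR adjusted p up to 0.066). NDLN Tregs, at 39.2, 10.97 and 20.9 CPM, lay above NDLN Tconvs without passing (log2 fold change 5.58 ± 1.51 SE, edgeR adjusted p = 0.16). Heart Tregs were at 19.6 to 45.3 CPM (mean 34.3). The heart difference of Fkbp4 in Tregs minus that in Tconvs, against the NDLN, had the smallest p of the members and did not pass (-6.90 ± 1.93 SE, edgeR adjusted p = 0.36).

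Cdc37, which loads kinases onto Hsp90, was at 205, 113 and 71.4 CPM in heart Tregs and at 39.7, 37.7 and 26.9 in spleen Tregs. These groups did not overlap, and Cdc37 had the smallest p of the members in that pair without passing (log2 fold change 1.90 ± 0.60 SE, edgeR adjusted p = 0.33, DESeq2 adjusted p = 0.014). MLN Tregs were at 127.5 to 188 CPM (mean 153), beside a heart Treg mean of 130. Over all groups, Cdc37 was at 109 to 205 CPM in the set of 5 and at 18.2 to 127.5 in the 16. Within the 16 libraries, the heart difference from spleen Tregs was 1.41. Ptges3 (p23, 17.9 to 282 CPM over all libraries), Stip1 (Hop, the bridge between Hsp70 and Hsp90, 0 to 120.2), Ahsa1 (an activator of the Hsp90 ATPase, 0.0835 to 117), Chordc1 (18.9 to 179.6) and St13 (Hip, 11.3 to 217) were called in no comparison by edgeR or DESeq2. Among the 9 heart and MLN libraries, Ptges3 and Hsf2 lay lower in the 5 libraries that stand apart than in the 4 others, as Hsp90aa1 did (background 3.45% of genes). Bag1, an exchange factor for Hsp70, split the other way, at 218 to 340 CPM in the 5 and 1.04 to 94.3 in the 16. DESeq2 called Bag1 in heart Tconvs against both lymphoid groups, and edgeR in no pair. With Fkbp4 it made 2 members above and 1 below without overlap between the 5 and the 16 (background 1.39% of genes above and 1.88% below).

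The 5 stress-induced members gave 0 calls by edgeR in the 9 pairs of groups. At an unadjusted p under 0.05, 3 passed in heart against spleen Tconvs, 1 in heart against NDLN Tconvs, and 2 in heart Tregs against each of spleen and NDLN Tregs (background 12.5%, 18.6%, 11.7% and 15.5% of genes). DESeq2 called 2, 1, 2 and 2 there (background 10.4%, 19.5%, 9.56% and 13%). In the other 5 pairs 1 or 2 of the 5 passed an unadjusted p under 0.05 (background 7.33% to 11.6% of genes). DESeq2 called 0 to 2 in those pairs (background 6.35% to 12.1%). Of the exonic 50-base stretches of Hspa1a, 66.3% occur in other genes, so that its count is uncertain. It was at 0.991, 12.3 and 1.44 CPM in heart Tconvs and at 0 in the 3 heart Treg and all 6 spleen libraries. In NDLN Tconvs it was at 11.02, 0 and 0 CPM and in MLN Tregs at 0, 0 and 1.45. Counts thus appeared in each of the 3 heart Tconv libraries and elsewhere in single libraries, and the mean of heart Tconvs was at least 108-fold higher than in spleen Tconvs and at least 122-fold higher than in heart Tregs, taking 3 counts over the group of 0 as its floor (edgeR adjusted p = 0.36 and 0.6). These bounds cover counting error only, and heart Tconv replicate 2 gave most of the counts.

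Hspa1b, whose count is uncertain too (62.3% of its stretches occur in other genes, Hspa1a first among them), was at 6.13, 30.4 and 0.437 CPM in heart Tconvs and at 0 in all spleen and NDLN Tconv libraries. The heart mean was at least 270-fold higher than in spleen Tconvs and at least 216-fold higher than in NDLN Tconvs, and neither difference passed (edgeR adjusted p = 0.33 and 0.22). Heart Tregs were at 0, 0 and 4.78 CPM, MLN Tregs at 0.123, 2.68 and 5.99 and NDLN Tregs at 9.19, 0 and 0. The gene was therefore found in all 3 heart Tconv and all 3 MLN Treg libraries, in 1 heart Treg library and in 1 NDLN Treg library.

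Dnajb1, the J protein partner of inducible Hsp70, was at 109, 177 and 254 CPM in heart Tregs, 32.8, 45.3 and 66.3 in MLN Tregs, 24.7, 55.6 and 6.80 in spleen Tregs and 111, 43.6 and 5.75 in NDLN Tregs. Heart Tregs lay above spleen and MLN Tregs in every library and overlapped with NDLN Tregs, and none of these passed (log2 fold change 2.63 ± 0.86 SE, edgeR adjusted p = 0.36 against spleen, 1.90 ± 0.84 SE, edgeR adjusted p = 0.5 against MLN). Heart Tconvs were at 384, 60.9 and 472 CPM, with replicate 2 below all 3 spleen Tconvs (104, 83.1 and 109) and within the range of NDLN Tconvs (125, 115 and 46.2). Spleen Tregs lay below spleen Tconvs in every library (log2 fold change -1.76 ± 0.83 SE, edgeR adjusted p = 0.62).

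Hsph1, the inducible Hsp110, was at 79.6, 37.6 and 44.5 CPM in heart Tconvs, above 0, 7.79 and 7.89 in spleen Tconvs and 31.2, 17.0 and 10.8 in NDLN Tconvs, without passing (log2 fold change 3.37 ± 1.49 SE, edgeR adjusted p = 0.37 and 1.45 ± 1.38 SE, edgeR adjusted p = 0.6). Heart Tregs were at 45.4, 41.9 and 0.417 CPM and MLN Tregs at 100.2, 35.2 and 35.3, against 31.4, 10.1 and 5.38 in spleen Tregs and 19.1, 7.25 and 13.3 in NDLN Tregs. Bag3, which links Hsp70 to autophagy of damaged proteins, was at 12.8, 75.4 and 0.303 CPM in heart Tregs and at 0 in all 3 NDLN Treg libraries. Its heart Treg mean was at least 622-fold above the floor of the NDLN Tregs, with an edgeR adjusted p of 0.094, but 1 library gave most of it. Bag3 was at 12.1, 7.55 and 14.6 CPM in heart Tconvs, 3.77, 0.472 and 4.55 in spleen Tconvs and 6.16, 0 and 0 in NDLN Tconvs, and at 14.9, 2.58 and 6.72 in spleen Tregs and 1.93, 1.77 and 2.36 in MLN Tregs. In NDLN Tconvs, where 1 library gave all the counts, its mean was at least 43.3-fold above the floor of NDLN Tregs (edgeR adjusted p = 0.33).

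**Figure D4:**
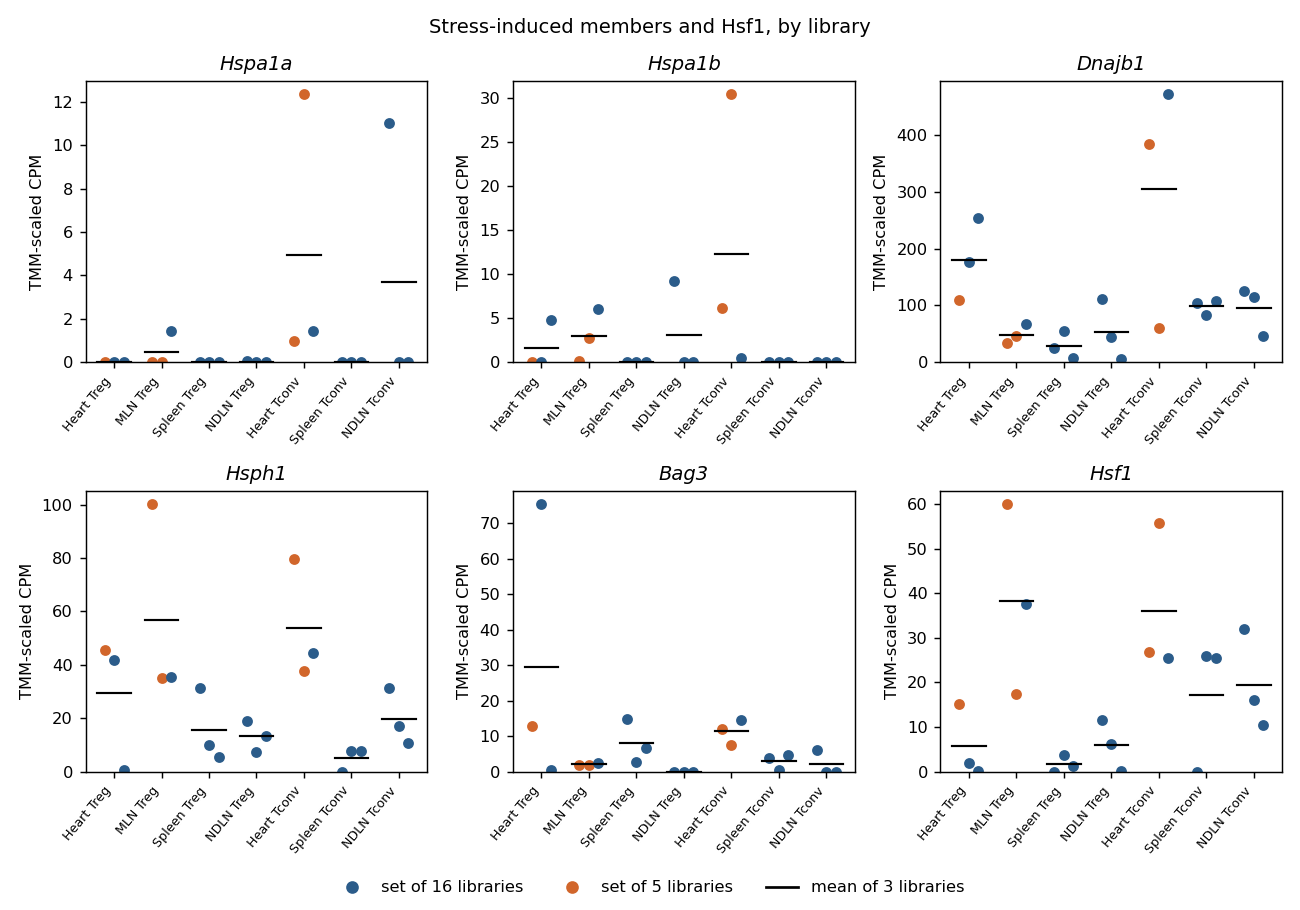
Level of the 5 stress-induced members and of Hsf1, in TMM-scaled CPM, for each of the 21 libraries by group; points are libraries coloured by library set and lines the mean of 3. Hspa1a and Hspa1b are at 0 in all 6 spleen libraries, and Dnajb1 in heart Tregs lies at 109 to 254 CPM, above spleen and MLN Tregs.

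The summed level of the 5 stress-induced members was 167 to 294 CPM in heart Tregs, 84.9 to 135 in MLN Tregs, 18.9 to 71.0 in spleen Tregs and 19.1 to 139.5 in NDLN Tregs. It was 149 to 533 CPM in heart Tconvs, 91.3 to 121 in spleen Tconvs and 57.0 to 173 in NDLN Tconvs. Heart Tregs lay above the other 3 Treg groups, and heart Tconvs above spleen Tconvs but not above NDLN Tconvs; without TMM scaling the heart Tconv range (181 to 618) lay above that of NDLN Tconvs (45.5 to 150.4) as well. All 5 were higher in heart Tconvs than in spleen and in NDLN Tconvs by the fitted values (within the 16 libraries 5 and 4 of 5), and in heart Tregs 4 of 5 against spleen and 3 of 5 against NDLN. Against MLN Tregs, 2 were higher and 3 lower in heart Tregs (median log2 difference -0.88, beside -0.12 over all genes). Most of the heart Treg sum (mean 241 CPM) was Dnajb1 (mean 180 CPM).

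The TRiC/CCT subunits differed by little. By the fitted values, all 7 (Tcp1, Cct2, Cct3, Cct4, Cct5, Cct7 and Cct8) were higher in heart Tconvs than in spleen Tconvs (median log2 difference 0.72, beside 0.27 over all genes) and than in NDLN Tconvs (0.57, beside 0.48), with 0 called by edgeR in both. Of the 7, 3 and 2 passed an unadjusted p under 0.05 (background 12.5% and 18.6% of genes), and DESeq2 called 0 and 1 (background 10.4% and 19.5%). Their summed level was 1872 to 2223 CPM in heart Tconvs, 972 to 1444 in spleen Tconvs and 1018 to 1347 in NDLN Tconvs, with no overlap. In Tregs all 7 were also higher in the heart than in spleen (median 0.38) and NDLN (0.32), under both other scalings too, but within the 16 libraries this held for 5 and 6 of 7. The summed Treg levels overlapped, at 1261 to 2036 CPM in the heart, 1232 to 2212 in the MLN, 887 to 1591 in the spleen and 1203 to 1532 in the NDLN. Cct3, at 303, 223 and 189 CPM in MLN Tregs and 31.8, 66.0 and 70.2 in NDLN Tregs, had with Hspa8 the smallest p in that pair and did not pass (log2 fold change 2.09 ± 0.57 SE, edgeR adjusted p = 0.37; DESeq2 adjusted p = 0.0052).

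**Figure D5:**
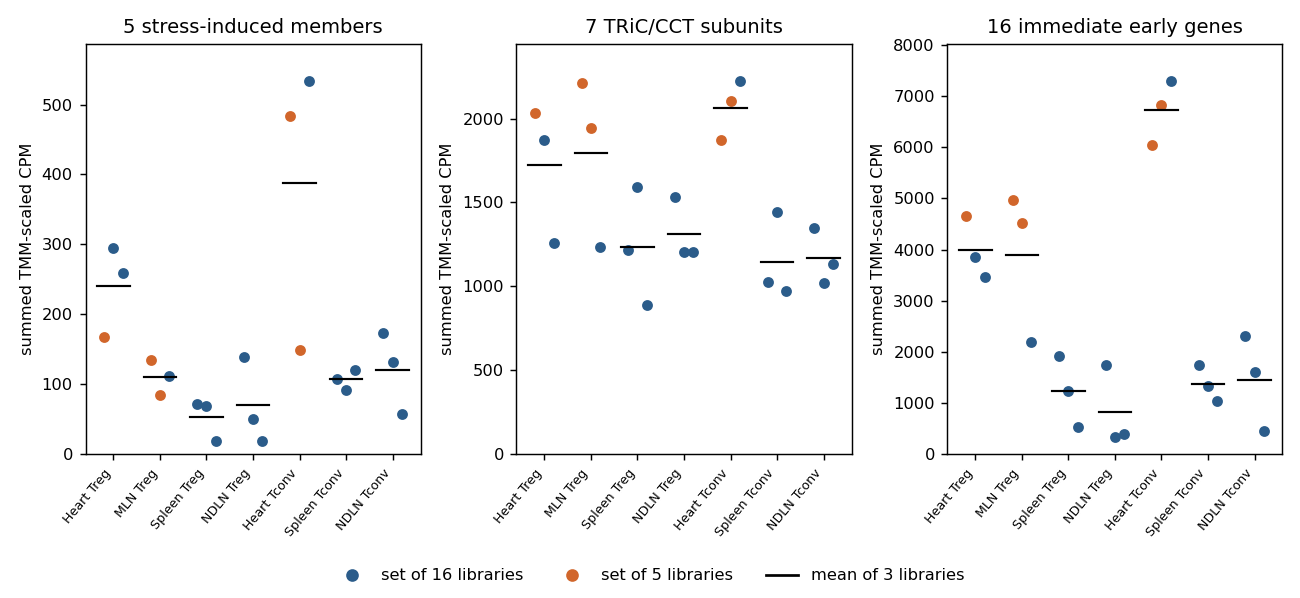
Summed level of the 5 stress-induced members, the 7 TRiC/CCT subunits and 16 immediate early genes, in TMM-scaled CPM, for each library by group; points are libraries coloured by library set and lines the mean of 3. Heart Tconvs lie above spleen and NDLN Tconvs in the middle and right panels, and heart Tconv replicate 2 is the low point of its group in the left panel.

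The 3 mitochondrial members were called in no comparison by edgeR. DESeq2 called Hspe1 in heart Tconvs against both lymphoid groups and over all groups, and Hspd1 in heart against spleen Tconvs. Hspe1 (Hsp10), the lid of the Hsp60 chamber, was at 106, 105 and 176 CPM in heart Tconvs, below 475, 329 and 297 in spleen Tconvs and 299, 409 and 438 in NDLN Tconvs, with no overlap and without passing (log2 fold change -1.51 ± 0.47 SE, edgeR adjusted p = 0.14 and -1.56 ± 0.47 SE, edgeR adjusted p = 0.076). It was the 1 member whose heart Tconv libraries all lay below in both comparisons. By the fitted values, 6 members were lower against spleen Tconvs and 3 against NDLN Tconvs. Hspd1 (Hsp60), its partner, was at 159.6, 73.0 and 178 CPM in heart Tconvs, above 7.97, 50.8 and 37.9 in spleen Tconvs, and Hspa9 (mortalin) ranged from 0.0418 to 152 CPM over all libraries. Of the exonic 50-base stretches, 42.1% of Hspd1 and 44.8% of Hspe1 occur in other genes as well.

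Hsf1, the main heat shock factor, was at 15.2, 1.90 and 0.0379 CPM in heart Tregs, 60.1, 17.5 and 37.7 in MLN Tregs, 0, 3.66 and 1.29 in spleen Tregs and 11.6, 6.21 and 0.0400 in NDLN Tregs. In Tconvs it was at 26.8, 55.8 and 25.5 CPM in the heart, 0, 26.0 and 25.4 in the spleen and 32.0, 16.03 and 10.4 in the NDLN. Heart Tregs lay below both heart Tconvs and MLN Tregs in every library, with large errors and no call (log2 fold change -2.66 ± 2.01 SE, edgeR adjusted p = 0.81 and -2.75 ± 2.02 SE, edgeR adjusted p = 0.72). Hsf2 ranged from 1.68 to 57.2 CPM with no call. Hspb1 (Hsp27), a small heat shock protein, was at 0, 38.1 and 28.9 CPM in heart Tregs and at 1.08, 2.95 and 10.5 in heart Tconvs. It was at 0 in all NDLN Tconv libraries. Its 2 high heart Treg libraries were those with the highest summed level of fibroblast markers. In MLN Tregs it was at 0 to 9.36 CPM, where those markers summed to at most 4.85 CPM. The part of fibroblast RNA in its level was not tested. Of its exonic 50-base stretches, 50.1% occur in other genes.

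Between Tregs and Tconvs of the same organ, edgeR called 0 members in the heart, the spleen and the NDLN (background 0.0667%, 0.06% and 0.3% of genes). At an unadjusted p under 0.05, 2 members were lower in Tregs in the heart (background 7.81%), 1 was lower in the spleen (7.33%), and 3 were higher and 1 lower in the NDLN (11.6%). DESeq2 called 2, 0 and 3 (background 6.94%, 6.35% and 12.1%). In the heart, 29 of 38 members had a lower fitted level in Tregs (median log2 difference -0.51, beside -0.12 over all genes), and for 5 of them the groups did not overlap (background 8.17%). In the spleen, Dnaja1 was lower in every Treg library than in every Tconv library without passing (log2 fold change -0.44 ± 0.26 SE, edgeR adjusted p = 0.66). Between MLN and NDLN Tregs edgeR called 0 members as well (background 0.00667%). At an unadjusted p under 0.05, 5 were higher and 1 lower in the MLN (background 9.66%), and DESeq2 called 3 (background 6.65%). There the median log2 difference was 0.32 over all libraries (0.15 over all genes) and -0.06 within the 16, where a single MLN library is left.

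Chaperones outside the 38 were read from lists chosen for this comparison. Of 16 chaperones of the endoplasmic reticulum (ER), Hspa5 (BiP), the Hsp70 of that compartment, was called in 3 comparisons: heart Tconvs, at 1320 ± 571 CPM (SD, n = 3), were higher than spleen Tconvs at 162 ± 54.3 and NDLN Tconvs at 166 ± 50.1 (log2 fold change 3.03 and 2.99, edgeR adjusted p = 0.0052 and 0.0027), and heart Tregs, at 801 ± 224, were higher than NDLN Tregs at 187 ± 60.0 (2.10, edgeR adjusted p = 0.034). In these comparisons edgeR called no other ER chaperone (background 0.473%, 2.88% and 0.533% of genes). DESeq2 called 4, 3 and 3 of the 16 (background 10.4%, 19.5% and 13%). Of 51 further chaperones and cochaperones tested, Trap1, the mitochondrial Hsp90, was called higher (48.6 ± 15.8 against 0.518 ± 0.449 CPM, edgeR adjusted p = 0.043) and Dnajc19, a mitochondrial J protein of the import motor, lower (80.9 ± 10.1 against 254 ± 63.6, edgeR adjusted p = 0.019) in heart against NDLN Tconvs. There edgeR called 2.88% of all genes, and in the other 8 pairs of groups it called 0 of the 51. DESeq2 called 13 in heart against NDLN Tconvs (background 19.5% of genes) and 1 to 9 in the other pairs (background 6.35% to 13%). The median log2 difference of these 51 was 0.14 in heart against NDLN Tconvs (0.48 over all genes). Of 31 proteasome subunits edgeR called 0 in any pair of groups, with a median of 0.02 in heart against NDLN Tconvs and -0.27 against spleen Tconvs. There 1 was higher and 7 lower, and 2 higher and 8 lower, at an unadjusted p under 0.05 (background 18.6% and 12.5% of genes), and DESeq2 called 4 and 4 (19.5% and 10.4%). In the other 7 pairs 0 to 2 were higher and 0 to 8 lower at that p (background 7.33% to 15.5% of genes). DESeq2 called 0 to 2 there (background 6.35% to 13%).

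Immediate early genes, which cells switch on within minutes of stimulation or handling, were high in the same libraries. Their summed level over 16 genes was 6043 to 7289.5 CPM in heart Tconvs against 1035 to 1733 in spleen and 446 to 2313 in NDLN Tconvs, and 3465 to 4665 CPM in heart Tregs against 2194 to 4964 in MLN, 532 to 1919 in spleen and 328 to 1741 in NDLN Tregs. Junb and Atf3 were called higher in heart Tconvs than in spleen and NDLN Tconvs and in heart Tregs than in NDLN Tregs, and Zfp36 in heart than in NDLN Tconvs. In these 3 comparisons edgeR called 0.473%, 2.88% and 0.533% of all genes. At an unadjusted p under 0.05, 10, 10 and 8 of the 16 were higher there (background 12.5%, 18.6% and 15.5%). DESeq2 called 6, 7 and 6 (background 10.4%, 19.5% and 13%). In heart against spleen and MLN Tregs edgeR called 0 of the 16 (background 0.147% and 0.0667%). Junb was at 1423 ± 593 CPM in heart Tconvs and 148 ± 105 in NDLN Tconvs (edgeR adjusted p = 0.0084). The part that the state reported by these genes has in the chaperone levels was not tested.

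Markers of other cells also differed between heart and lymphoid libraries. A list of 10 fibroblast markers (such as Col1a1, Col3a1 and Dcn) summed to 159 to 670.4 CPM in heart Tregs and 1.26 to 246 in heart Tconvs, and to at most 5.67 CPM in any other library. In heart Tregs 9 of the 10 had counts (Pdgfra was at 0) and in heart Tconvs 10 of 10. In heart Tconv replicate 1 the sum was 1.26 CPM with 8 of 10 markers at 0, and in that library Dnaja1 (1067 CPM) and Dnajb6 (439) were at their highest while Hspa8 (1935) and Hsp90ab1 (761) were the lowest of the 3 heart Tconv libraries. A list of 9 macrophage and monocyte markers summed to 569 to 874 CPM in heart Tregs, 381 to 416 in spleen Tregs and 226 to 309.6 in NDLN Tregs, and to 193 to 446 in heart Tconvs, 56.9 to 161 in spleen and 0.176 to 92.4 in NDLN Tconvs. In heart Tregs 4 of the 9 had counts, with the defining markers Adgre1, C1qa, C1qb, C1qc and Csf1r at 0, and in heart Tconvs 7 of 9, with Csf1r and Itgam at 0. Markers of CD8 and natural killer cells summed to 1056 to 1754 CPM in heart Tconvs, 521 to 2176 in spleen and 104 to 218 in NDLN Tconvs. The 7 cardiomyocyte markers summed to 0.766 to 46.2 CPM in heart libraries and 47.7 to 131 in the MLN. The MLN sum was Ttn alone, with the other 6 markers at 0. In heart Tregs and in heart Tconvs 4 of the 7 had counts. Actc1 and Myl2 had counts in both heart groups and in no other group. The 7 erythroid markers summed to 1139.7 to 25028 CPM in spleen Tregs, 254 to 27720.1 in MLN Tregs and 406 to 1268 in spleen Tconvs, and to at most 32.9 CPM in any heart or NDLN library. The 7 B cell markers summed to 806 to 1039 CPM in heart Tregs, 1129 to 3526 in MLN, 1277 to 3154 in spleen and 1278 to 1401 in NDLN Tregs. In Tconvs they summed to 208 to 311 CPM in the heart, 429.7 to 534 in the spleen and 306 to 685 in the NDLN. The 6 dendritic cell markers summed to at most 369 CPM, in a spleen Treg library. The part of these cells in the chaperone differences was not tested.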

How the data were processed

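Gene counts were read from the count table that the authors deposited: whole-number counts per Ensembl gene for 21 libraries, made, per the submitters' processing notes, with CASAVA 1.8.2, HISAT2 and HTSeq 0.6.0 on mm10. Steps not given in the sources used here include which annotation was counted, whether strand was used and what became of reads that match several genes. All 21 libraries entered 1 fit with edgeR 4.0.16 in R 4.3.3 (genes kept by filterByExpr with a minimum count of 10 and a minimum total of 15, TMM scaling, robust quasi-likelihood test, Benjamini-Hochberg adjusted p under 0.05 over all genes tested). DESeq2 1.42.0, other scalings, filters, library subsets, a replicate block and leaving out each library were tried as alternatives. The script was tested on simulated data. A fold against a group with no counts was taken against a floor of 3 counts over the group, which covers counting error only. Genes were put in on/off patterns with at most 0.5 and at least 5 CPM and at least 4 libraries on each side. Figures were drawn with matplotlib 3.10.9 in Python 3.11.15.

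All 38 members were counted. Values by library were given, in some or all groups, for the 5 stress-induced members, Hspa8, both Hsp90 genes, Hsf1 and each called member. Tests were given for these and for the 2 members with the smallest p in each pair of groups. Hspe1, Hspd1 and Hspb1 are given by library beyond this rule, chosen after their values were seen. The members and all gene lists were chosen with earlier results of these data known.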

Additional observations from a re-analysis of the deposited data

How the results depend on the processing

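DESeq2 with its own size factors called more members than edgeR in all comparisons but spleen Tregs against spleen Tconvs (0 in both): 5, 5 and 2 in heart Tregs against spleen, NDLN and MLN Tregs, 9 and 11 in heart Tconvs against spleen and NDLN Tconvs, 2 and 3 for Tregs against Tconvs in the heart and NDLN, 3 in MLN against NDLN Tregs, 1 and 3 for the interactions and 12 over all groups. Without a filter on low counts, edgeR called 1 (Dnajb1) and 2 (Bag3 and Hspa8) in heart Tregs against spleen and NDLN Tregs, 1 in NDLN Tregs against Tconvs, 1 in MLN against NDLN Tregs, 1 in the NDLN interaction and 7 over all groups. RLE scaling kept the counts of 3, 6 and 4, while shifting the median of all genes by 0.139 (log2) in heart against NDLN Tregs. Within the 16 libraries alone, 0 members were called in heart Tconvs against spleen or NDLN Tconvs and 0 over all groups; with the library set as a term the counts were 0, 1 (Dnaja1) and 2. The cause was not tested.

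Leaving out each library in turn gave 0 to 4 calls in heart against spleen Tconvs (0 without spleen Tconv replicate 1 or 3 or heart Tconv replicate 2, and 1 without spleen Tconv replicate 2 or heart Tconv replicate 1), 1 to 7 in heart against NDLN Tconvs (1 without NDLN Tconv replicate 3 or heart Tconv replicate 2, and 2 without NDLN Tconv replicate 2), 1 to 6 over all groups (1 without heart Tconv replicate 1), 0 to 1 in heart against NDLN Tregs (1 without NDLN Tconv replicate 1) and 0 to 1 in NDLN Tregs against Tconvs (1 without spleen Tconv replicate 1). The other comparisons stayed at 0. Without TMM scaling, 252 of the 266 group levels (38 members in 7 groups) moved by at most 1 SD. The other 14 belong to 11 members, such as Cct5 in heart Tconvs (419 to 492 CPM) and Bag3 in MLN Tregs (2.02 to 2.40).

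With the replicate number as a block, 1 member was called in heart against NDLN Tregs (Hspa8), 4 in heart against spleen Tconvs, 6 in heart against NDLN Tconvs and 5 over all groups, and 0 elsewhere. The labels state no pairing by these numbers. Of 27 same-numbered pairs, 2 had correlated deviations over 0.1 (range -0.060 to 0.184), and in 0 comparisons did all 3 pairs. With 3 libraries per group and a wide spread, these correlations cannot decide whether same-numbered libraries share an animal.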
